A study of Mus musculus with 6 samples.

Results

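Genes whose proteins move water, potassium, bicarbonate and small molecules across astrocyte membranes were examined, namely Aqp4, Kcnj10, Kcnj16, Gja1, Atp1b2, Slc4a4, Mlc1 and Hepacam. They were chosen by gene name for their known roles, with earlier results of these data known, and they are 8 of the 55357 genes listed. The samples were primary cortical astrocytes from C57BL/6 mouse embryos at embryonic day 18. In 3 cultures the cells were transfected with a plasmid that expresses FLAG-tagged BRAF KE (the K499E form of the kinase BRAF) from the CMV promoter, and they were collected 48 hours later (KE). The other 3 cultures were nontransfected (NT). The study asked how BRAF KE alters signaling and the state of astrocytes. The CMV promoter is not specific to a cell type, so any transfected cell in the dish can carry BRAF KE. No culture with an empty plasmid or with wild-type BRAF was analysed here, so an effect of transfection and an effect of BRAF KE cannot be told apart.

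Astrocytes wrap blood vessels and synapses and keep the fluid around neurons stable. Aqp4 encodes the main water channel of the brain, which is anchored in the endfeet on vessels by the dystrophin complex. Kcnj10 encodes the inward rectifier Kir4.1, which takes up and redistributes the potassium that active neurons release, and Kcnj16 encodes Kir5.1, a subunit that forms mixed channels with Kir4.1. Atp1b2 encodes the beta 2 subunit of the sodium-potassium pump, first described in glia as an adhesion molecule. Slc4a4 encodes the sodium-bicarbonate cotransporter NBCe1. Gja1 encodes connexin 43, which joins astrocytes into a network through gap junctions. Mlc1 encodes a membrane protein needed for regulation of cell volume, and Hepacam encodes GlialCAM, the adhesion molecule that holds MLC1 at junctions between astrocytes. Loss of either MLC1 or GlialCAM in humans causes a leukodystrophy with swollen white matter.

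The values are normalized counts, which are gene counts divided by a size factor for each culture. Their totals lay between 30472429 and 30895529, and the approximate depth was lowest in KE replicate 2, at 24500000 reads, and highest in KE replicate 1, at 34100000 reads. Braf was at 34933 to 40978 in KE and at 811 to 946 in NT, a log2FC of 5.37, so the labels of all 6 cultures held. The groups differed widely. Among 15280 genes with a mean of at least 10, limma with Benjamini-Hochberg adjustment called 3870 higher in KE (25.3%) and 3974 lower (26.0%) at an adjusted p under 0.05, which is 51.3% in either direction, and for 9159 genes (59.9%) the values of the groups did not overlap. The log2FC is the difference in mean log2(normalized count + 1), KE minus NT, and it understates the change of low genes. Its median over all tested genes was 0.00, and the median of its size was 0.30.

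The cell type markers moved as well. Of 11 astrocyte markers tested, 8 rose and 1 (Fgfr3) fell, with a median log2FC of 0.41, and the sum of the 12 listed was 199809 to 208005 in KE and 140492 to 150853 in NT. Gfap, Aldh1l1, Slc1a3 and Glul were abundant in every culture, while S100b was at 11.8 to 31.5 and Gjb6 at 0 to 1.83. All 12 markers of microglia and macrophages fell, with a median log2FC of -3.35, and their sum was 3255 to 4997 in KE and 36243 to 43390 in NT. Of 9 tested markers of the oligodendrocyte lineage, 7 fell and 1 (Cnp) rose, and their sum was 29787 to 34867 in KE and 38171 to 38399 in NT, while Mog, which marks mature oligodendrocytes, was at 0 to 1.98. Of 8 neuron markers tested 2 fell (Map2 and Stmn2), 1 rose (Tubb3) and 5 were not called. The sum of that list was 6901 to 7391 in KE and 8945 to 9677 in NT. Map2 alone made up most of it, at 4906, 4851 and 5137 in KE and 7243, 6653 and 7334 in NT, so the lower sum does not describe the list as a whole. In such bulk samples, fewer cells of a type and less RNA per cell cannot be told apart. The part of these shifts in the results for the 8 genes was not tested.

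**Figure D1:**
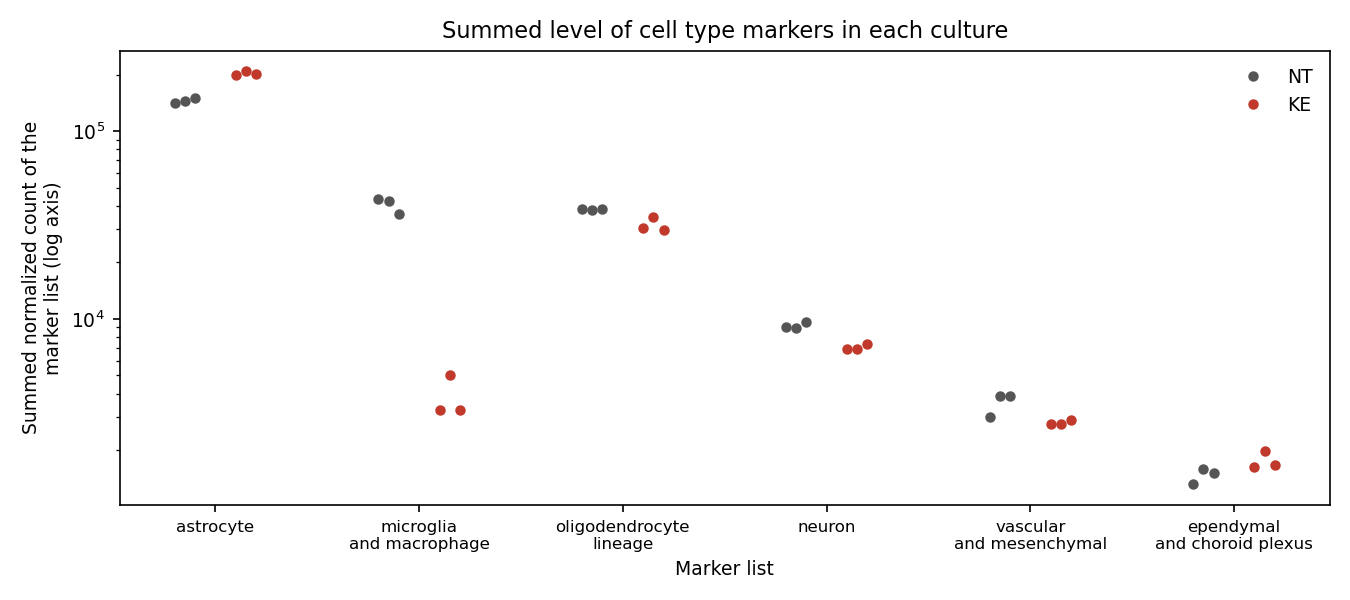
Summed normalized count of each cell type marker list (log axis) in each of the 3 KE and 3 NT cultures, 1 point a culture. The microglia and macrophage sum lay at 3255 to 4997 in KE against 36243 to 43390 in NT, and the astrocyte sum was higher in all 3 KE cultures.

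All 8 genes passed the filter on low values. Atp1b2 and Hepacam rose in KE, Kcnj16, Gja1 and Kcnj10 fell, and Aqp4, Slc4a4 and Mlc1 did not pass the test. Thus 5 of 8 were called, beside 51.3% of all tested genes, and the same 5 were those whose groups did not overlap, beside 59.9% of all tested genes. The 2 that rose and the 3 that fell stand beside 25.3% and 26.0% of all tested genes, so the members were called about as often as other genes. Their median log2FC was -0.01. The changes ran from a 2.23-fold fall of Kcnj16 to a 1.96-fold rise of Atp1b2, and 8.65% of tested genes had a larger log2FC than Kcnj16 in either direction and 11.7% a larger one than Atp1b2. The 5 calls held in each of 14 alternative analyses. When each culture was instead scaled to the sum of its 11 astrocyte markers other than Gfap, a choice made after seeing the data, the median of all genes moved to -0.42, 1068 genes rose and 9563 (62.6%) fell, and the log2FC of the members moved with the median. Hepacam then stood at -0.11 (adjusted p = 0.15), Aqp4 at -0.40 and Mlc1 at -0.35, all below 0, whereas Atp1b2 remained above 0 at 0.55.

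**Figure D2:**
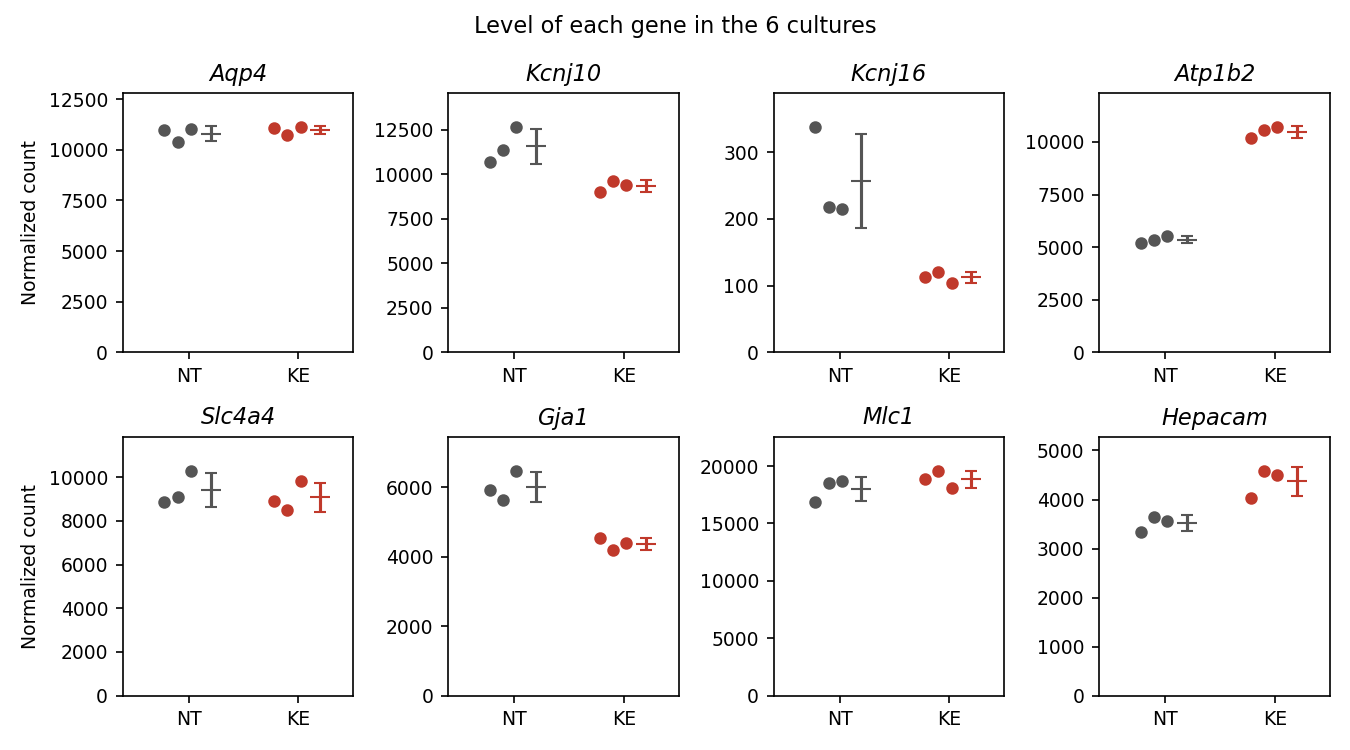
Normalized count of each of the 8 genes in the 3 KE and 3 NT cultures, with 1 point a culture and, beside the points, the group mean with its SD as bars. The groups are separate for Kcnj10, Kcnj16, Gja1, Atp1b2 and Hepacam and overlap for Aqp4, Slc4a4 and Mlc1.

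**Figure D3:**
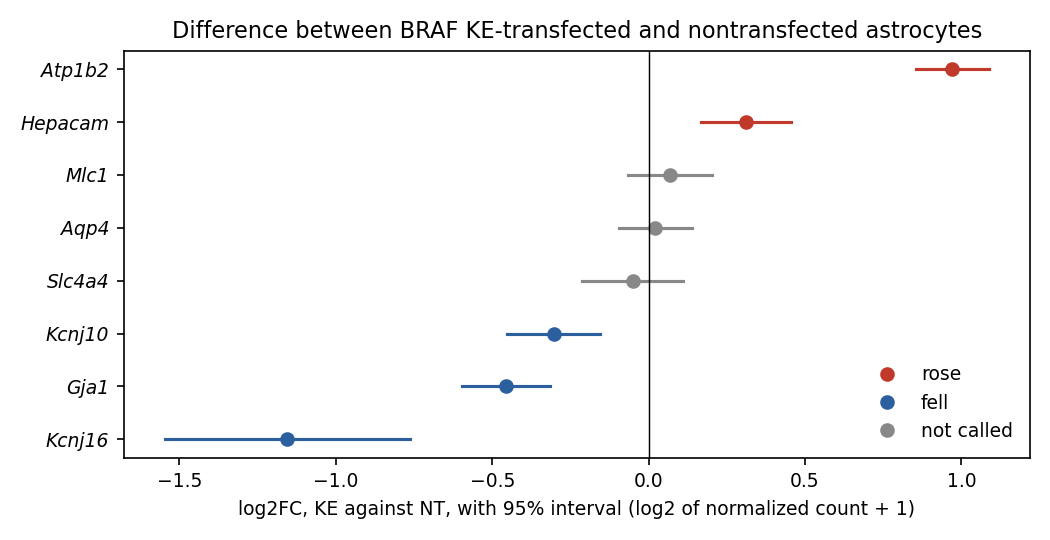
The log2FC (KE minus NT) of the 8 genes, with limma's 95% confidence interval as bars. Atp1b2 (0.97) and Hepacam (0.31) lie above 0, Kcnj10 (-0.30), Gja1 (-0.46) and Kcnj16 (-1.15) lie below 0, and the intervals of the other 3 include 0.

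The water channel gene Aqp4 (ENSMUSG00000024411), on the minus strand of chromosome 18 from 15522451 to 15544039 in GRCm39, had normalized counts of 11065, 10733 and 11121 in KE replicates 1, 2 and 3. In NT replicates 1, 2 and 3 it had 10971, 10405 and 11051. The 6 values interleaved, and the lowest of both groups was replicate 2. The group means were 10973 ± 210 in KE against 10809 ± 352 in NT (SD, n = 3 each). By limma, the log2FC was 0.02 (SE 0.05, 95% confidence interval -0.09 to 0.14, adjusted p = 0.75).

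Of the 11 other aquaporin genes listed, 7 were under the filter, 3 of these at 0 in every culture, and limma called 0 of the 4 tested in either direction, also at an unadjusted p under 0.05. Aqp9, which also conducts glycerol and had the highest mean normalized count of these 4, was at 60.4 in KE and 85.5 in NT and was not called. The dystrophin complex, which holds AQP4 in place, was tested in full. Of its 14 genes 6 rose, 1 fell and 7 were not called, with a median log2FC of 0.24. Over all tested genes 25.3% rose and 26.0% fell, and the counts of this list and of the other lists of related genes stand beside these shares. Agrn, which encodes the matrix protein agrin and had the highest mean normalized count of the list over all cultures, not corrected for length, rose from 12416 to 18310 (log2FC 0.56, adjusted p = 3.6e-05 by limma). Sntb1 (0.69), Sgcb (0.52), Sgce (0.48) and Sspn (0.23) rose too, though the groups of Sspn overlapped and its adjusted p exceeded 0.05 when KE replicate 2, KE replicate 3, NT replicate 1, NT replicate 2 or the variance trend was left out. Dmd, which encodes dystrophin and its brain short form, fell (log2FC -0.24). Dag1, the gene of dystroglycan, did not pass the test at a log2FC of 0.02.

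The potassium channel genes both fell. Kcnj10 (ENSMUSG00000044708) lies on the plus strand of chromosome 1 from 172168765 to 172201652 in GRCm39, and its exons overlap on the other strand with those of Gm57153, which is not a row of the table. The normalized counts of Kcnj10 were 8994, 9637 and 9428 in KE replicates 1 to 3. The NT values, in the same order, were 10683, 11373 and 12651. Every KE culture was below every NT culture, and NT replicate 3 was the highest. The means were 11569 ± 998 (SD, n = 3) in NT and 9353 ± 328 (SD, n = 3) in KE. The log2FC was -0.30 (SE 0.07, 95% confidence interval -0.45 to -0.15, adjusted p = 0.0032 by limma), so that Kcnj10 fell by 19.0% on the fitted scale.

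Kcnj16 (ENSMUSG00000051497), on the plus strand of chromosome 11 from 110858843 to 110927617, was a low gene in these cultures. It had normalized counts of 113, 120 and 104 in KE replicates 1 to 3. In NT replicates 1 to 3 it had 337, 217 and 215. The KE cultures lay close together, whereas NT replicate 1 stood well above the other NT cultures, and the groups did not overlap. The group means were 112 ± 7.96 in KE against 257 ± 69.9 in NT (SD, n = 3 each). The log2FC was -1.15 (SE 0.18, 95% confidence interval -1.55 to -0.76, adjusted p = 2.8e-04 by limma), and it was -0.94 without NT replicate 1.

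With both subunits lower but Kcnj16 more so, the normalized counts of Kcnj10 were 82.6 times those of Kcnj16 in KE and 45.8 times in NT, as means taken on the log2 scale. This and the other ratios are not corrected for gene length and are read only between the groups. The log2 ratio was 6.37 ± 0.10 in KE against 5.52 ± 0.47 in NT (SD, n = 3 each), a difference of 0.85 with no overlap. A two-sided exact permutation test gave p = 0.1, the smallest that 3 cultures against 3 allow, and 0.14 after adjustment over the 7 gene pairs compared. The difference was 0.58 without NT replicate 1. The ratio of Aqp4 to Kcnj10, whose products share the endfoot membrane, was 1.17 in KE and 0.94 in NT, with the same exact p.

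Of 14 other inward rectifier and two-pore potassium channel genes, 8 were tested, of which 2 rose, 3 fell and 3 were not called, with a median log2FC of -0.30. Kcnj2, the gene of Kir2.1, fell most, from 257, 185 and 194 in NT to 93.1, 67.5 and 85.1 in KE (log2FC -1.36, adjusted p = 8.1e-05 by limma). All 12 markers of microglia and macrophages, cells that also carry Kir2.1, fell in the same cultures, and their part in this fall was not tested. Kcnk10, which encodes the two-pore channel TREK-2, rose from 953 to 1235 (log2FC 0.38). Its mean normalized count over all cultures, not corrected for length, was the highest of the list. In NT alone, Kcnk1 (1174) and Kcnk2 (1021) had higher means. Kcnj4 rose by 0.74 on the log2 scale, from 46.7 to 79.0. Kcnk1 (-0.24) and Kcnj14 (-1.13) fell, but without NT replicate 3 neither was called, with adjusted p = 0.059 and 0.087 by limma. The call of Kcnj14, at 6.25 to 19.7 in all cultures, was also lost without KE replicate 1, KE replicate 2 or NT replicate 2.

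Start regions of the genes that fell are shown so that their sequences can be compared. The windows, from RefSeq on GRCm38.p6, run from 250 bases before to 50 bases after an annotated start, all on the plus strand. Of the 8 members 6 have a window, and Aqp4 and Atp1b2 have none. In the 10 windows of these 6 genes 5 motifs were searched on both strands: AP-1 (TGANTCA), ETS (CCGGAANT), STAT (TTCNNNGAA), an ISRE-like motif (GAAA, any 2 bases, GAAA) and NFI (TTGGC, any 5 bases, GCCAA). Capitals mark the matches, which do not overlap one another.
Kcnj10, chr1:172340960-172341259: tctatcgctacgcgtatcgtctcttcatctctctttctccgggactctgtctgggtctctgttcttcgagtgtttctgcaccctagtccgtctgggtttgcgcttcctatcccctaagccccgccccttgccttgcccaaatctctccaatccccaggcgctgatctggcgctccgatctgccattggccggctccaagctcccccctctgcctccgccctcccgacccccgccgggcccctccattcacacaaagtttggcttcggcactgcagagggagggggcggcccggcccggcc
Gja1, chr10:56377050-56377349: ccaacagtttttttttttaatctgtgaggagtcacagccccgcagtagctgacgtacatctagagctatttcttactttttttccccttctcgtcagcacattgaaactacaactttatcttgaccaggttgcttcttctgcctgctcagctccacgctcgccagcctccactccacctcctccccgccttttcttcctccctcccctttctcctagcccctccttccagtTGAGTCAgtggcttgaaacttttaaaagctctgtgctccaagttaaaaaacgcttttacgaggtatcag
Kcnj16, chr11:110967783-110968082: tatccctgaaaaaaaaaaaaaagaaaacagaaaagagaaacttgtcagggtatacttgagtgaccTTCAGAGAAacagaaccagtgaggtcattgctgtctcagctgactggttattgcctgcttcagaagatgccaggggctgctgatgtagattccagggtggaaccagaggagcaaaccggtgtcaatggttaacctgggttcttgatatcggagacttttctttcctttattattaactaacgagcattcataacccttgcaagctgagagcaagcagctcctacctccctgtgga
Kcnj16, chr11:111023610-111023909: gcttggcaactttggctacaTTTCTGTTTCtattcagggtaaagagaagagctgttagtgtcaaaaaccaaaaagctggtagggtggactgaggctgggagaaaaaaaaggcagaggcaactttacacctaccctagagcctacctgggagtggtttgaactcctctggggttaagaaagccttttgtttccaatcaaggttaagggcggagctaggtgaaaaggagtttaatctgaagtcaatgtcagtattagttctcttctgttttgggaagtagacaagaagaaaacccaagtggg

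The Kcnj10 window holds no match and is 63.67% G or C. In the Gja1 window the AP-1 letters lie 19 to 13 bases before the start. Kcnj16 has 4 windows, and the 2 with a match are printed. The first of these holds the STAT letters 185 to 177 bases before its start, and the other holds the ISRE-like letters on the opposite strand 230 to 221 bases before its start. Of 32851 windows, 7.81% hold the AP-1 letters, 8.30% the STAT letters, 3.44% the ISRE-like letters, 5.66% the ETS letters and 0.0365% the NFI letters. No window of a member holds the ETS or NFI letters. A match is only a description of the letters in the window.

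The gap junction gene Gja1 (ENSMUSG00000050953) lies on the plus strand of chromosome 10 from 56253241 to 56278609 in GRCm39, and its exons overlap on the other strand with those of Gm68148, which is not a row of the table. Its normalized counts were 4548, 4201 and 4391 in KE replicates 1 to 3. Those of the NT replicates were 5916, 5646 and 6479. All 3 KE cultures were below all 3 NT cultures. It averaged 6014 ± 425 (SD, n = 3) in NT and 4380 ± 174 (SD, n = 3) in KE. The log2FC was -0.46 (SE 0.06, 95% confidence interval -0.60 to -0.32, adjusted p = 1.4e-04 by limma), so that Gja1 fell by 27.1% on the fitted scale.

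Gjb6, the gene of connexin 30, the other gap junction protein of mature astrocytes, was at 0 to 1.83 normalized counts, too low for a ratio to Gja1 to be read. Of the 22 other genes of connexins, pannexins and their scaffold, 7 were tested, of which 1 rose, 2 fell and 4 were not called. Gjc1, the gene of connexin 45, fell most, from 554, 608 and 629 in NT to 236, 309 and 282 in KE (log2FC -1.12, adjusted p = 1.3e-05 by limma). Gja5, the gene of connexin 40, fell from 84.1 to 40.8 (log2FC -1.01). Panx2, a pannexin gene, rose from 21.2 to 88.4 (log2FC 1.98). Tjp1, which encodes the scaffold ZO-1 that binds connexin 43 and had the highest mean normalized count of the list, had a log2FC of -0.05 and was not called. The median log2FC of the tested genes was -0.07.

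Atp1b2 (ENSMUSG00000041329), on the minus strand of chromosome 11 from 69487651 to 69496851 in GRCm39, rose most among the members. Its normalized counts were 10168, 10573 and 10700 in KE replicates 1 to 3. The NT values, in the same order, were 5192, 5322 and 5534. The gap between the groups was many times the spread within them. The KE cultures averaged 10480 ± 278 and the NT cultures 5349 ± 173 (SD, n = 3 each), a 1.96-fold rise. The log2FC was 0.97 (SE 0.05, 95% confidence interval 0.85 to 1.09, adjusted p = 1.2e-07 by limma).

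Among 18 other genes of the pump, its FXYD regulators and the cation-chloride cotransporters, 15 were tested, of which 6 rose, 5 fell and 4 were not called, with a median log2FC of 0.06. Atp1b1, which encodes the widespread beta 1 subunit, rose by 0.24 on the log2 scale, although its call was lost without KE replicate 1 (adjusted p = 0.087 by limma), NT replicate 1 (0.078) or the variance trend (0.075), whereas Atp1b3, the beta 3 gene, was not called at -0.10. Fxyd1, the gene of phospholemman, rose most after Atp1b2 (log2FC 0.61), and Fxyd5, the gene of dysadherin, fell most, from 502, 468 and 359 in NT to 140, 120 and 100.3 in KE (log2FC -1.87, adjusted p = 3.4e-06 by limma). Slc12a2, the gene of the sodium-potassium-chloride cotransporter NKCC1, fell by 0.28 on the log2 scale, but it was not called without the variance trend (adjusted p = 0.051 by limma).

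The bicarbonate cotransporter gene Slc4a4 (ENSMUSG00000060961) lies on the plus strand of chromosome 5 from 89034345 to 89387514 in GRCm39. Its normalized counts were 8928, 8524 and 9816 in KE replicates 1 to 3. Those of the NT replicates were 8877, 9089 and 10300. The groups overlapped, with replicate 3 highest in both. The KE cultures averaged 9090 ± 661 and the NT cultures 9422 ± 767 (SD, n = 3 each), and the log2FC was -0.05 (95% confidence interval -0.21 to 0.11, adjusted p = 0.58 by limma).

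Of 14 other genes of bicarbonate transport and pH, 9 were tested. Among these 4 rose, 5 were not called and limma called 0 lower, with 1 lower at an unadjusted p under 0.05. Slc4a10, which encodes a sodium-driven bicarbonate transporter best known from neurons and the choroid plexus, rose from 14.8, 14.6 and 10.7 in NT to 97.6, 131 and 92.3 in KE (log2FC 2.91, adjusted p = 3.0e-06). Slc4a2, the gene of the anion exchanger AE2 and the one with the highest mean normalized count of the list, rose from 2486 to 3654 (log2FC 0.56). Slc4a11 rose by 0.91 and Slc4a3 by 0.41, but the groups of Slc4a3 overlapped and its call was lost without KE replicate 2 (adjusted p = 0.066 by limma), NT replicate 1 (0.088) or the variance trend (0.087). Car2, the gene of the carbonic anhydrase that acts with bicarbonate carriers, was not called (log2FC -0.20). The log2 ratio of Slc4a4 to Car2 was 3.50 ± 0.39 in KE against 3.35 ± 0.27 in NT (SD, n = 3 each), with overlapping groups (two-sided exact permutation p = 0.6).

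Mlc1 and Hepacam, whose products form one complex, were set side by side. Mlc1 (ENSMUSG00000035805), on the minus strand of chromosome 15 from 88840084 to 88863356 in GRCm39, had 18833, 19588 and 18128 normalized counts in KE replicates 1 to 3. In NT replicates 1 to 3 it had 16834, 18489 and 18667. The groups overlapped, and NT replicate 1 was the lowest of the 6. The KE cultures averaged 18850 ± 730 and the NT cultures 17997 ± 1011 (SD, n = 3 each), with a log2FC of 0.07 (95% confidence interval -0.07 to 0.20, adjusted p = 0.38 by limma).

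Hepacam (ENSMUSG00000046240), on the plus strand of chromosome 9 from 37278621 to 37299291, had 4039, 4587 and 4491 normalized counts in KE replicates 1 to 3. In NT replicates 1 to 3 it had 3343, 3651 and 3560. Every KE culture was above every NT culture. The mean was 1.24-fold higher in KE, at 4372 ± 293 (SD, n = 3) against 3518 ± 158 (SD, n = 3). The log2FC was 0.31 (SE 0.06, 95% confidence interval 0.17 to 0.46, adjusted p = 0.0021 by limma). Mlc1 had 4.31 times the normalized count of Hepacam in KE and 5.11 times in NT, and the log2 ratio was 2.11 ± 0.10 in KE against 2.35 ± 0.03 in NT (SD, n = 3 each). These ratios did not overlap, with a two-sided exact permutation p of 0.1.

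Of 13 other genes of volume regulation, 11 were tested, of which 4 rose, 2 fell and 5 were not called, with a median log2FC of 0.13. Clcn2, the chloride channel that GlialCAM also binds, rose from 358, 363 and 374 in NT to 506, 604 and 634 in KE (log2FC 0.66, adjusted p = 2.6e-04 by limma). Lrrc8a, the subunit that every volume-regulated anion channel needs, rose by 0.53 on the log2 scale, and Lrrc8b, another subunit, fell by 0.45. Gpr37l1, an astrocyte receptor, rose by 0.51 and Ttyh2 by 0.35. Ttyh3, which had the highest mean normalized count of the list, fell from 7425 to 5446. Without KE replicate 2, Trpv4 (log2FC -1.26) and Ttyh1 (-0.29) were called as well, so that 4 fell.

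**Figure D4:**
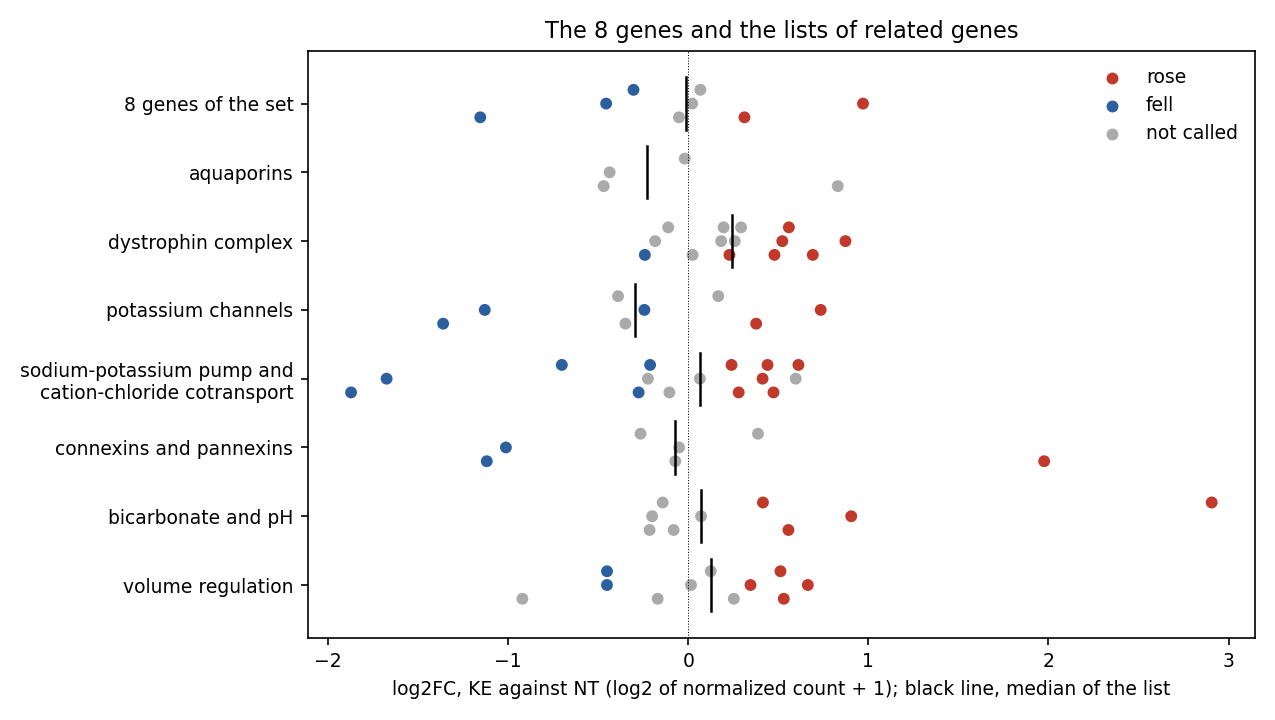
The log2FC (KE minus NT) of every tested gene of the 7 related lists and of the members, 1 point a gene, with genes called by limma in red (rose) or blue (fell) and a black line at each median. Each list other than the aquaporins holds called genes, and the largest rise is that of Slc4a10 (2.91) and the largest fall that of Fxyd5 (-1.87).

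Levels can be compared between genes only per length, so the normalized counts were divided by the length of the canonical transcript in kb. In NT, Mlc1 was highest at 6308 ± 354 per kb (SD, n = 3), followed by Kcnj10 at 2135 ± 184, Aqp4 at 2096 ± 68.3 and Atp1b2 at 1782 ± 57.5. Next came Gja1 at 1280 ± 90.4, Slc4a4 at 1154 ± 93.9, Hepacam at 822 ± 36.9 and Kcnj16 at 70.6 ± 19.2. The ranges of the cultures overlapped between Kcnj10 and Aqp4 and between Gja1 and Slc4a4, and not between the other neighbours.

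In KE the order of these levels was Mlc1 (6607 ± 256 per kb), Atp1b2 (3492 ± 92.6), Aqp4 (2128 ± 40.7), Kcnj10 (1726 ± 60.6), Slc4a4 (1113 ± 80.9), Hepacam (1021 ± 68.4), Gja1 (932 ± 37.0) and Kcnj16 (30.9 ± 2.19). Slc4a4 and Hepacam overlapped, as did Hepacam and Gja1. Atp1b2 thus moved from place 4 to place 2, and Gja1 from place 5 to place 7. The order depends on the length taken: with all annotated exons of a gene, Atp1b2 was in place 4 and Gja1 in place 7 of both groups. Mlc1 was first and Kcnj16 last by either length.

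**Figure D5:**
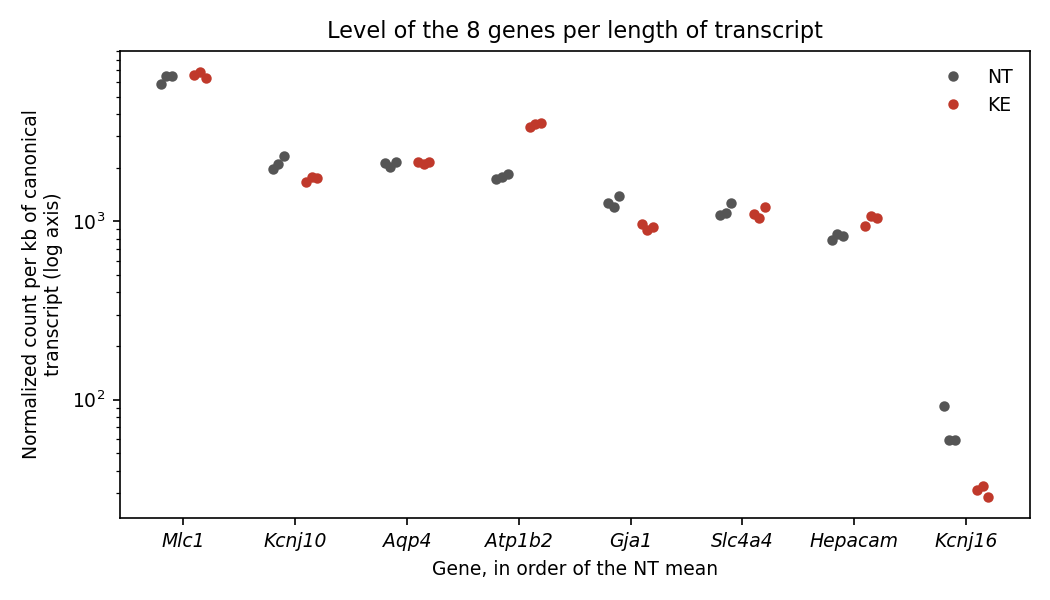
Normalized count per kb of canonical transcript (log axis) for the 8 genes in each KE and NT culture, in the order of the NT means. Mlc1 lies at the top and Kcnj16 at the bottom of both groups, and Atp1b2 lies above Aqp4 in KE only.

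Across the 6 cultures, the gene with the most similar log2 values was sought for each member among 11973 genes outside the lists with a mean of at least 100. These r values describe 6 points that fall into 2 groups. For Atp1b2 it was Tmem128 (Pearson r = 0.9998), and 285 genes passed an r of 0.99. For Kcnj10 it was Afdn (0.997), for Gja1 Gen1 (0.998), for Hepacam Tob2 (0.997) and for Kcnj16 Oard1 (0.997). For the members that were not called, the most similar genes were Recql5 for Aqp4 (0.992), Etfb for Mlc1 (0.998) and Aph1a for Slc4a4 (0.978).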

How the data were processed

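Gene expression was measured by RNA-seq (TruSeq stranded mRNA kit) in 3 KE and 3 NT cultures. Groups and replicate numbers came from the labels, and nothing states that cultures were prepared separately, so p-values measure the spread between these samples, which may be technical. The authors deposited a normalized signal per gene: Salmon gene counts divided by DESeq2 size factors, after trimming with Trim Galore and alignment with STAR. The methods name GRCm39 with Gencode vM28 for mouse, whereas the processing notes name GRCh38, and the gene identifiers are those of mouse. Whether counting used the strand is not given in the sources used here. Batches are mentioned in the methods but not named, and none was modelled. Size factors rest on the premise that most genes are stable, and they take out the depth. Whole reads could not be recovered, since 75.2% to 77.7% of low values (up to 20) lay near a whole multiple (within 0.1), short of the 95% required, which left a count test out of reach.

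The log2 of normalized count + 1 was modelled by limma 3.58.1 (R 4.3.3), on group alone and with a variance trend, for the 15280 genes with a mean of at least 10. Tests were two-sided, and Benjamini-Hochberg adjustment covered all genes tested. Ratios between genes were tested with exact permutations in scipy 1.17.1. In simulated data for this comparison (15280 genes, 50 changed at each size), the fit recovered 42%, 84%, 96% and 98% of genes changed 1.25-, 1.5-, 2- and 4-fold, and called 5 of 15080 unchanged genes. The simulation gave every gene the same small variation between cultures and changed few genes, whereas 51.3% of genes were called in the data. These shares therefore need not hold for the cultures themselves. Coordinates and transcript lengths came from Gencode vM39 on GRCm39, in which 54749 of 55357 identifiers were found.

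The members and lists were chosen with earlier results of these data known. Named genes were Braf, the members, the called gene with the largest rise and fall and the gene with the highest mean in each list, the pair partners and the most similar gene of each member; some of these are not reported here. Other list genes were named after their values were seen. Alternatives were other pseudocounts (0.5 and 5), filters (none, and a mean of at least 50) and scalings (quantile, and the 75th percentile), no variance trend, the replicate number as a block, and leaving out each culture in turn.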

Additional observations from a re-analysis of the deposited data

How the results depend on the processing

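The 5 calls among the 8 genes held in all 14 alternatives listed under the processing, with adjusted p (limma) at 0.0012 to 0.025 for Kcnj10, 1.2e-04 to 0.0045 for Kcnj16, 6.9e-05 to 0.0045 for Gja1, 8.1e-09 to 1.8e-04 for Atp1b2 and 8.9e-04 to 0.018 for Hepacam. With 1 culture left out, their log2FC ranged from -0.36 to -0.24, -1.26 to -0.94, -0.50 to -0.40, 0.95 to 0.99 and 0.28 to 0.37. The sign of a log2FC that was not called turned under quantile normalization for Aqp4 (-0.0065) and Mlc1 (-0.0097), and with 1 culture left out for Aqp4 (-0.0051 to 0.0383) and Slc4a4 (-0.108 to 0.0146). So did the differences in log2 ratio of Gja1 to Gjb6 (-0.679 to 0.159), which rests on 0 to 1.83 normalized counts of Gjb6, and of Slc4a4 to Car2 (-0.0541 to 0.338). Quantile normalization gave no ratio to Gjb6, which is under the filter.

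Without the trend, 3 genes of the pump list fell in place of 5 (Slc12a2 was among those not called), and 1 of the bicarbonate list fell in place of 0, while Atp1b1, Sspn and Slc4a3 were no longer called. One bicarbonate gene also fell with a mean of at least 50. Without a filter, 3 connexin and pannexin genes rose in place of 1, as Gja6 and Gjb5 were then tested. With 1 culture left out, 0 to 1 aquaporins, 1 to 3 potassium channels, 0 to 1 bicarbonate genes and 2 to 4 volume regulation genes fell. Aqp1 was the aquaporin, called without NT replicate 3, and Slc4a8 the bicarbonate gene called without NT replicate 1. Car2 was called lower without KE replicate 2 (log2FC -0.34, adjusted p = 0.044 by limma). Where not stated, the cause was not tested.

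A block for the replicate number gave 8046 called genes in place of 7844, 7669 of them shared. No source used here says that samples of the same number were prepared together. Their deviations from the group means correlated at 0.059 to 0.066, under the 0.1 asked of a pairing, and those of other KE and NT samples at -0.05 to -0.01, so every sample correlated best with its own number, which is a hint from the data and not from the design.

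Scaling to the summed astrocyte markers, added after seeing the data, moved the median of all genes to -0.42, so that 1068 of all 15280 genes rose and 9563 (62.6%) fell. With this shift 1 member rose (Atp1b2, 0.55) and 6 fell: Kcnj16 (-1.57), Gja1 (-0.88), Kcnj10 (-0.72), Slc4a4 (-0.47), Aqp4 (-0.40) and Mlc1 (-0.35), while Hepacam was at -0.11. Relative to that shift, Aqp4, Slc4a4 and Mlc1 lay within 0.1 of the median, as they did before the scaling. Such a scaling moves all genes by nearly the same amount, so it leaves their distances from the median nearly unchanged. At this depth, low genes such as Kcnj16, Kcnj14 and Slc4a10 are the least precise.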

Other observations

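Markers of other cell types that the cultures could hold moved in both directions. Of 8 vascular and mesenchymal markers tested 3 rose, 3 fell and 2 were not called. The sum of the list was 2750 to 2881 in KE and 3020 to 3901 in NT, but the lower sum in KE came from Acta2 alone, and the remaining genes together were not lower in KE. Acta2, the gene of smooth muscle actin, fell from 1174, 1833 and 2074 in NT to 679, 632 and 641 in KE (log2FC -1.34, adjusted p = 5.4e-05 by limma), while Rgs5, a pericyte gene, rose from 267 to 456 (log2FC 0.79). The endothelial genes Cldn5 and Cdh5 were at 0 to 5.94 in every culture. Pecam1, another endothelial gene of the list, was also low but fell, from 34.3, 36.3 and 26.8 in NT to 17.1, 16.8 and 18.2 in KE (log2FC -0.86, adjusted p = 0.020 by limma). Of 3 ependymal and choroid plexus markers tested 1 rose (Rsph1, log2FC 0.48) and limma called 0 lower, also at an unadjusted p under 0.05. These genes were named after their values were seen.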
